A study of Mus musculus with 10 samples.

Results

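Calmodulin and the kinases that answer to it were followed through MC38 tumor cells taken from mice on a high-fat diet and from mice on a control diet. The set holds 9 genes of the 53379 in the deposited count table, found by matching the Ensembl identifier, version ignored, to the mouse symbols Camk2a, Camk2b, Camk2d, Camk2g, Camk1, Camkk1, Camkk2, Calm2 and Calm3. The set was built around Camk2a because its level differed between the diets in these same libraries, so its diet difference is given as a description with no test, and the other genes were added as its relatives. All 9 passed the filter on low counts that left 14337 genes for testing.

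MC38 is a mouse colon carcinoma line grown here as an implanted tumor in C57BL/6J mice. Tumors were collected 21 days after implantation, and cells were sorted for the fluorescent protein dTomato and for lack of CD45, the surface protein of leukocytes. There was 1 polyadenylated RNA library per mouse, from 5 mice fed the high-fat diet and 5 mice fed the control diet, and every mouse carried the same tumor line. No source used here gives what the diets contained, how long they were fed, or how old the mice were and of which sex.

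Calcium entering the cytoplasm binds calmodulin, and calcium-loaded calmodulin then switches on the CaM kinases by pulling an inhibitory segment away from the active site. CaMKII assembles from subunits encoded by Camk2a, Camk2b, Camk2d and Camk2g into a ring-shaped holoenzyme, and subunits that phosphorylate each other on a threonine in that segment stay active after calcium falls. The Camk2a and Camk2b subunits are best known from neurons, where they make up a large part of the postsynaptic density, while Camk2d and Camk2g are found in most tissues. CaM kinase I, encoded by Camk1, works in a cascade in which the CaM kinase kinases Camkk1 and Camkk2 phosphorylate it, and Camkk2 also phosphorylates AMPK.

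The coding sequence of the threonine segment is shown for the CaMKII subunits other than Camk2a, from GENCODE M21 transcripts of GRCm38, because whether the counts can tell these paralogs apart depends on how far such conserved stretches differ. Each line gives 60 coding bases, 5′ to 3′ on the coding strand, with the threonine codon beginning at base 31. Capitals mark the 21 positions at which the sequences are not all alike.
Camk2b: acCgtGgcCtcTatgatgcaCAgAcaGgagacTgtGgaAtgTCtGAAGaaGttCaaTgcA
Camk2d: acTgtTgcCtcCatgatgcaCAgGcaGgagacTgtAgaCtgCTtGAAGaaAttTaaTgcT
Camk2g: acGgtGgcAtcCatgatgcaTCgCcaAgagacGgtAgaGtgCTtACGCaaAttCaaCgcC

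Over the longest annotated coding sequences, identity of aligned residues between CaMKII subunits ran from 83.9% for Camk2b with Camk2g to 87.9% for Camk2b with Camk2d. The longest identical run of coding bases between any pair was 32 bases, between Camk2a and Camk2b. The calmodulin genes go further, since Calm2 and Calm3 code for the same 149 residues while differing at 78 of 447 coding bases. The first 60 coding bases of Calm2 and Calm3 are shown with the 8 differing positions in capitals, as an example of messages that differ while the protein does not.
Calm2: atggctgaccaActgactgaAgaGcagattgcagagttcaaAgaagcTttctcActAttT
Calm3: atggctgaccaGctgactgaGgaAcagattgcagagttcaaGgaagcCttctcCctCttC

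Windows of 50 bases along each gene's longest transcript were compared with the transcripts of every other gene, since reads from a shared window cannot be assigned. The shared percentage was 0.447% for Camk2a, 0.368% for Camk2b and 0% for Camk2d, Camk2g, Camkk1 and Camkk2, and no window of any of the 9 genes was shared with another of them. It was 12.7% for Calm2 and 2.77% for Calm3, all with predicted genes. For Camk1 it was 5.66%, from Ogg1, a DNA repair gene on the opposite strand whose exons overlap those of Camk1 by 232 bases. The counts of Calm2 and Camk1 are less certain for that reason. For Camk1 it depends on the strand setting of the counting, which is not given.

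Library totals ran from 16513388 to 17154050 counts in high-fat mice and from 17050797 to 18653705 in control mice, and levels are given as CPM, counts scaled to library size with TMM. A count of 0 leaves room for up to 3 counts, or 0.158 to 0.183 CPM, which covers counting error only. Epithelial markers were close to absent. The sum of 9 genes including Krt8, Krt18, Epcam and Cdh1 lay between 1.34 and 3.36 CPM in high-fat mice. In control mice it lay between 2.02 and 6.88 CPM. The label colon carcinoma names an epithelial tumor, and the origin of the cells was not tested. The sum of 9 fibroblast markers was between 6364 and 12562 CPM in high-fat mice and between 7034 and 12012 CPM in control mice. Most of it came from Col3a1, at means of 7603 CPM in high-fat mice and 7992 CPM in control mice. Dcn was next, at 1036 CPM in high-fat mice and 967 CPM in control mice. Pdgfra, Pdgfrb, Col1a1 and Dpt came after these, at 400, 158, 116 and 90.4 CPM in high-fat mice. In control mice Pdgfra, Pdgfrb, Col1a1 and Dpt were at 367, 139, 158 and 107 CPM. Col1a2, Lum and Fap were lower, with Fap at 1.76 CPM in high-fat mice and 1.19 CPM in control mice. The sum of 14 macrophage markers lay between 51.2 and 124 CPM in high-fat mice and between 94.0 and 765 CPM in control mice, with control mice 3 and 4 highest at 621 and 765 CPM. The sum of 13 neuron markers ran from 157 to 204 CPM in high-fat mice and from 133 to 202 CPM in control mice, nearly all of it from Tubb3, Dlg4 and Gap43. Of the others, Rbfox3, Snap25 and Syt1 had 12, 18 and 5 counts over all 10 libraries. Among 11 skeletal muscle genes Tnnc2 was at 0, and the sum ran from 2.84 to 8.98 CPM in high-fat mice and from 1.54 to 3.33 CPM in control mice.

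Camk2a, the alpha subunit of CaMKII (ENSMUSG00000024617, chromosome 18, 60925618 to 60988152 of GRCm38), was higher in tumor cells of every high-fat mouse than in those of any control mouse. Its level in high-fat mice 1 to 5 was 11.4, 12.7, 11.2, 13.6 and 8.86 CPM. In control mice 1 to 5 it was 6.35, 6.05, 6.06, 6.71 and 5.52 CPM. The lowest high-fat value, that of mouse 5, was still above the highest control value, that of mouse 4.

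The mean level of Camk2a was 11.5 ± 1.79 CPM in high-fat mice and 6.14 ± 0.436 CPM in control mice (SD, n = 5 each), a 1.88-fold difference. The log2 change, high-fat minus control, was 0.91 (SE 0.12). These rest on 152 to 230 counts per high-fat library and 97 to 127 per control library. In control mice the coefficient of variation, 7.11%, was no larger than the 9.54% that counting alone gives at that depth, while in high-fat mice it was 15.5% against 7.18% from counting. Endothelial markers had higher means on the high-fat diet for 8 of 8, but only 3 passed the filter on low counts and none was called. Their sums ran from 24.2 to 38.5 CPM in high-fat mice, highest in mouse 3, and from 17.9 to 25.7 CPM in control mice. Pecam1, the most abundant, was at 18.2 ± 2.74 CPM in high-fat mice and 17.2 ± 3.72 CPM in control mice. The skeletal muscle sum was also highest in high-fat mouse 3, at 8.98 CPM. In high-fat mice 4 and 5 it was 2.84 and 2.92 CPM, within the control range given above. The sum of 8 adipocyte markers, almost all Fabp4, ran from 3.18 to 9.17 CPM in high-fat mice and from 7.32 to 20.3 CPM in control mice. The part of these cell types in the Camk2a difference was not tested. In bulk libraries, more cells making a transcript and more of it per cell cannot be told apart.

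The beta subunit gene Camk2b (chromosome 11, 5969644 to 6066362) was close to Camk2a in read count in control mice. It stood at 5.84, 7.83, 5.80, 6.98 and 4.90 CPM in high-fat mice 1 to 5, against 6.05, 4.46, 7.46, 6.29 and 6.43 CPM in control mice 1 to 5. The groups overlapped over most of their range. The log2 change was 0.03 with a 95% interval from -0.32 to 0.38.

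Camk2d (chromosome 3, 126596302 to 126846326) and Camk2g (chromosome 14, 20734875 to 20794088), the widely expressed delta and gamma subunits, carried most of the CaMKII reads. Camk2d averaged 142 ± 11.6 CPM in high-fat mice and 135 ± 12.9 CPM in control mice (SD, n = 5 each), with a log2 change of 0.08 and a 95% interval from -0.10 to 0.25. Camk2g averaged 59.2 ± 3.70 CPM in high-fat mice and 59.1 ± 3.07 CPM in control mice, with a log2 change of 0.00 and an interval from -0.14 to 0.15. Both sets of values overlapped between the diets.

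**Figure D1:**
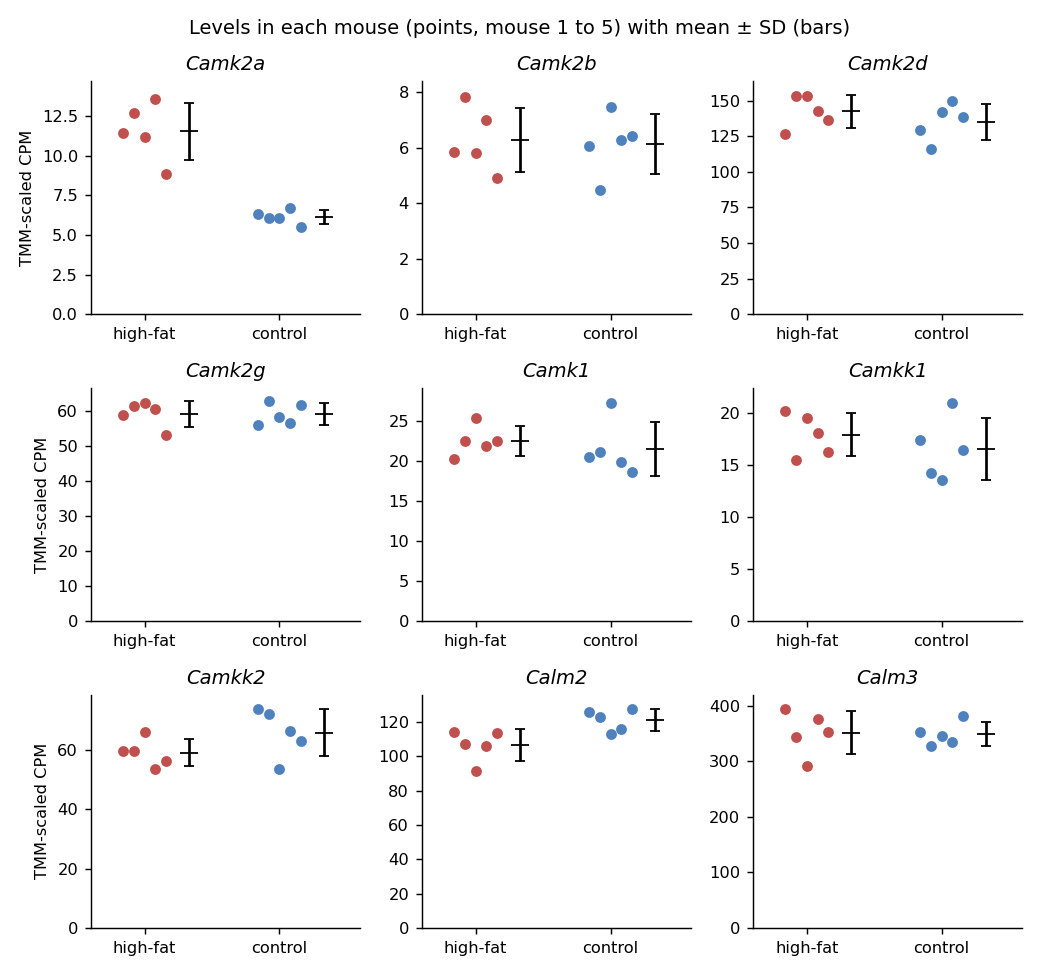
Level of each of the 9 genes in TMM-scaled CPM (y axes, from 0), with 1 point per mouse in order of mouse number and black bars for the mean ± SD of 5 mice, high-fat diet left and control diet right. Camk2a is the gene whose groups are apart, with high-fat mice between 8.86 and 13.6 CPM and control mice between 5.52 and 6.71 CPM.

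In the edgeR quasi-likelihood fit across all 14337 genes with Benjamini-Hochberg adjustment, 1 of the 9 genes passed an adjusted p of 0.05, and that gene was Camk2a. Over all genes tested 0.0628% passed. Because Camk2a was chosen on this contrast, nothing is read from the count. The count was 0 with library size as a covariate, and 0 without control mouse 1, 2, 4 or 5 or without high-fat mouse 2, 3 or 4, so it stayed at 1 in 3 of the 10 fits that left out a mouse. The log2 change of Camk2a lay between 0.85 and 1.00 in every one of the 18 alternatives run. Groups that did not overlap were found for Camk2a alone among the 9, and nothing is read from that either. Over all genes tested 2.18% had groups that did not overlap. Leaving Camk2a aside, 1 of the 8 relatives, Calm2, had an unadjusted edgeR p under 0.05, against 12.1% of all genes. The adjusted p of the 8 relatives ran from 0.320 for Calm2 to 0.989 for Camk2g.

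Camk1, the CaM kinase I gene (chromosome 6, 113334124 to 113343984), averaged 22.5 ± 1.89 CPM in high-fat mice and 21.5 ± 3.37 CPM in control mice (SD, n = 5 each). Control mouse 3 stood above the other controls at 27.3 CPM, the next being control mouse 2 at 21.1 CPM, and the high-fat mice lay between 20.2 and 25.4 CPM. The log2 change was 0.07 with a 95% interval from -0.17 to 0.30.

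The CaM kinase kinase genes Camkk1 (chromosome 11, 73019008 to 73042073) and Camkk2 (chromosome 5, 122731170 to 122779409) had changes of opposite sign, neither of which passed. Camkk1 averaged 17.95 ± 2.05 CPM in high-fat mice and 16.6 ± 2.96 CPM in control mice, with a log2 change of 0.12 and an interval from -0.16 to 0.39. Camkk2 averaged 59.0 ± 4.66 CPM in high-fat mice and 65.8 ± 8.04 CPM in control mice, with a log2 change of -0.16 and an interval from -0.35 to 0.04. Control mouse 3, at 53.7 CPM, was the lowest of the controls for Camkk2 and lay beside the lowest high-fat mouse, mouse 4, also at 53.7 CPM.

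Of the calmodulin genes in the set, Calm2 (chromosome 17, 87433412 to 87446935) and Calm3 (chromosome 7, 16915379 to 16924114), Calm2 was lower on the high-fat diet by a margin that did not pass after adjustment. Its level was 114, 107, 91.7, 106 and 114 CPM in high-fat mice 1 to 5, against 126, 123, 113, 116 and 128 CPM in control mice 1 to 5. High-fat mice 1 and 5 lay above control mouse 3, and the other high-fat mice lay below every control. The log2 change was -0.19 (SE 0.07) with a 95% interval from -0.34 to -0.03 and an adjusted p of 0.320 in edgeR. Calm3 averaged 352 ± 39.1 CPM in high-fat mice and 349 ± 21.2 CPM in control mice, with a log2 change of 0.01 and an interval from -0.17 to 0.20. High-fat mouse 3 had the lowest level of any library for both Calm2 and Calm3, at 91.7 and 292 CPM.

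**Figure D2:**
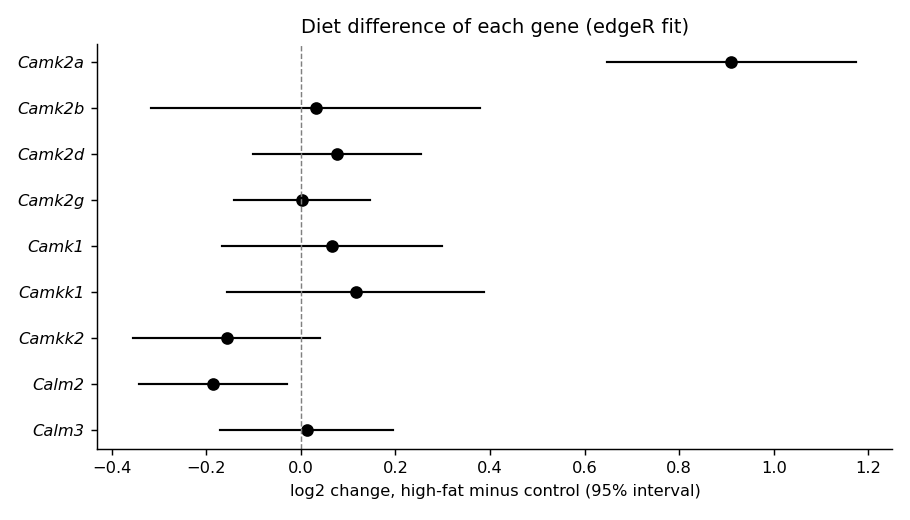
Log2 change, high-fat minus control, of each of the 9 genes (x axis) with its 95% interval from the edgeR fit (lines), 5 mice per diet. Camk2a is at 0.91, while the points of the other 8 lie between -0.19 and 0.12.

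Levels of different genes were compared per length, as RPKM (CPM per kilobase of merged exons). By mean over the 10 libraries the order was Calm3 at 145 RPKM, Calm2 at 77.7, Camk2g at 9.25, Camk2d at 6.16, Camkk2 at 5.72, Camkk1 at 4.63, Camk1 at 3.68, Camk2a at 1.18 and Camk2b at 0.680 RPKM. The calmodulin messages therefore stood well above those of every kinase in all 10 libraries. Among neighbours, Camk2d was above Camkk2 in 8 of 10 libraries and Camkk1 above Camk1 in 9 of 10, so those pairs did not separate beyond their spread. Camk2a was above Camk2b in 5 of 5 high-fat mice and 4 of 5 control mice.

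With the length of the longest transcript in place of merged exons, 5 of the 9 genes kept their place. Camk2d then stood above Camk2g, at 25.1 and 15.98 RPKM, in all 10 libraries, and Camk1 above Camkk1. The merged exons of Camk2d span 22493 bases against 5524 for its longest transcript, so its level per length is uncertain. On that scale Camk2a was above Camk2b in 5 of 5 high-fat mice and 1 of 5 control mice. Calm3, Calm2, Camkk2, Camk2a and Camk2b held the same ranks on both scales.

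**Figure D3:**
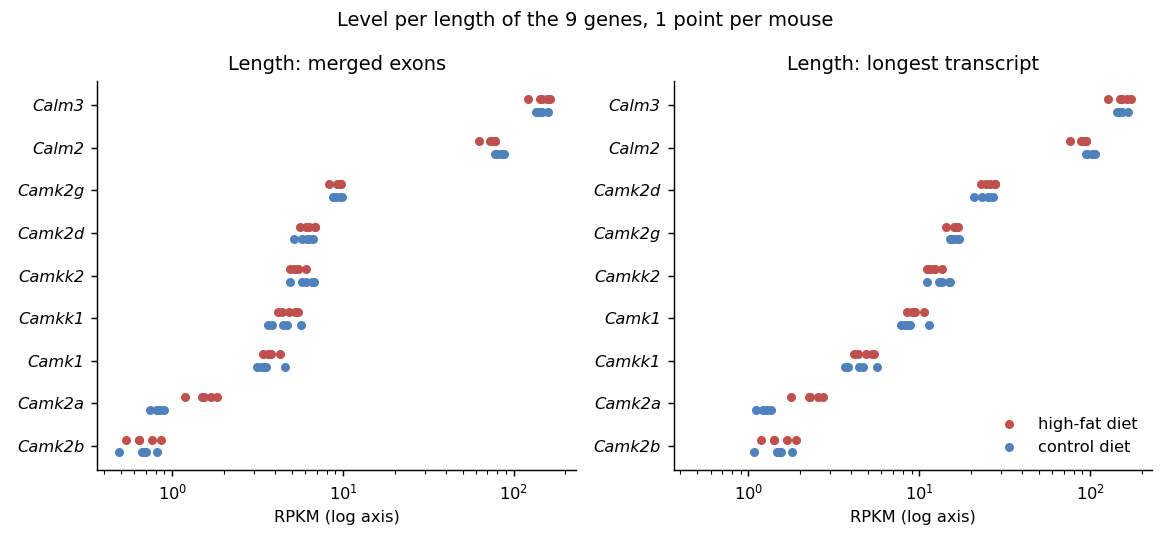
Level per length of the 9 genes in RPKM (log axis) with 1 point per mouse, high-fat diet in the upper row of each gene and control diet in the lower row, for merged exons (left) and the longest transcript (right). The calmodulin genes lead on both scales, Camk2a and Camk2b are lowest, and Camk2d and Camk2g change places with the length used.

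Within the CaMKII family, the alpha subunit made up a small part of the message in both diets. Camk2a was 8.66 ± 0.969% of the summed RPKM (merged exons) of the 4 subunit genes in high-fat mice and 4.92 ± 0.415% in control mice (SD, n = 5 each). The lowest high-fat share was 7.40% and the highest control share 5.31%. Camk2g was 52.0 ± 1.33% in high-fat mice and 55.2 ± 3.25% in control mice, and Camk2d was 35.5 ± 1.81% in high-fat mice and 35.8 ± 2.66% in control mice. Camk2b was 3.84 ± 0.502% in high-fat mice and 4.01 ± 0.647% in control mice. The summed level of the 4 genes was 17.8 ± 1.25 RPKM in high-fat mice and 16.7 ± 0.547 RPKM in control mice, with ranges from 16.05 to 18.96 RPKM in high-fat mice and from 16.02 to 17.2 RPKM in control mice that overlapped. The shares depend on the length used. Per longest transcript, Camk2a was 5.09 ± 0.635% in high-fat mice and 2.87 ± 0.243% in control mice. Camk2d then led, at 56.5 ± 1.93% in high-fat mice and 56.6 ± 2.83% in control mice, with Camk2g at 35.1 ± 1.38% in high-fat mice and 37.1 ± 3.16% in control mice. Camk2a was chosen for its diet difference, so these shares are a description.

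**Figure D4:**
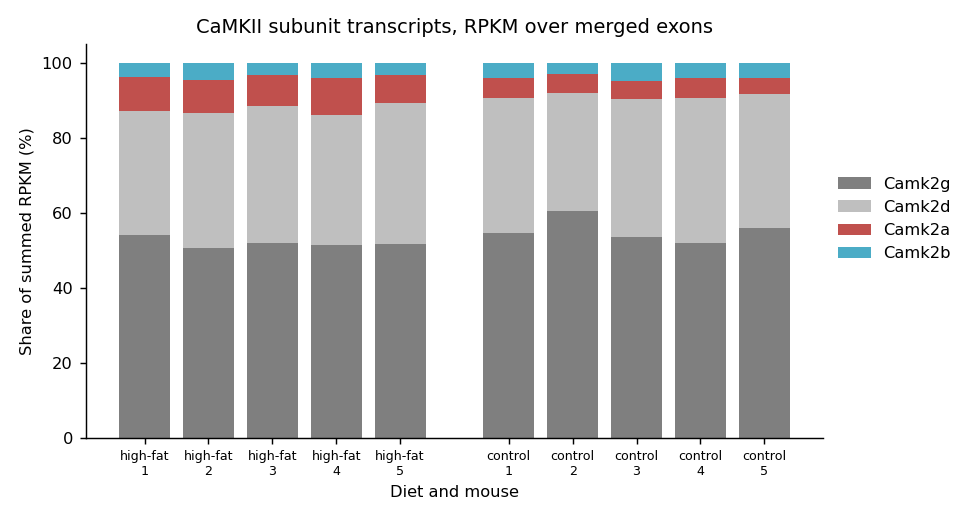
Share of each subunit gene in the summed RPKM, by merged exons, of the 4 CaMKII genes (y axis, percent) in each mouse, high-fat diet left and control diet right. Camk2a takes between 7.40% and 9.90% in high-fat mice and between 4.29% and 5.31% in control mice, and Camk2g and Camk2d make up most of the rest.

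The genes whose level moved most like that of Camk2a between mice of the same diet were Tstd1, Scamp5 and Gm8752, ranked by Pearson r of log2 CPM over the 10 libraries after each diet's mean was removed. Removing the means keeps the diet difference out of the ranking. Their likeness was 0.92, 0.92 and 0.91, the highest of 13451 genes with a mean of at least 1 CPM, and it is given as a measure with no test. With so many genes and only 10 libraries, high values can arise by chance, so no link to Camk2a is read from them. Tstd1, Scamp5 and Gm8752 are all low in counts. In control mice the spread of Camk2a was no larger than counting alone gives. Without high-fat mouse 5 the likeness of Tstd1 was 0.77, its lowest with any mouse left out. Tstd1 was at 1.07 ± 0.375 CPM in high-fat mice and 1.03 ± 0.238 CPM in control mice. Scamp5, a secretory carrier membrane protein gene, averaged 0.704 ± 0.173 CPM in high-fat mice and 1.55 ± 0.165 CPM in control mice (SD, n = 5 each), the opposite direction to Camk2a. Among the relatives, the likeness was 0.56 for Camk2b, 0.41 for Camk2g, 0.27 for Camk2d and 0.24 for Camkk1. It was 0.045 for Camkk2, 0.0013 for Calm3, -0.034 for Camk1 and -0.28 for Calm2. Camk2b, the highest of them, ranked 1043 of the 13451 genes and ran from 0.32 to 0.71 when each mouse was left out in turn. With the same mice left out, Camk2g ran from -0.45 to 0.56.

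The rest of the calcium and calmodulin pathway was described from 10 lists holding 141 genes, of which 103 were expressed well enough to test. None of the 103 passed in edgeR, where 6 were higher and 9 lower at an unadjusted p under 0.05, against 5.45% and 6.62% of all genes. DESeq2 called 2 of them, against 2.2% of all genes, and limma-voom called 0, against 0.0349% of all genes. Of the 103, the groups did not overlap for 1 higher gene, Atp2b4, and for 3 lower genes, Nfatc3, Crtc3 and Mef2a. Over all genes tested they did not overlap for 2.18%, with 155 genes higher and 157 lower. The median log2 change over the 103 was -0.04, against 0.01 over all genes tested.

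**Figure D5:**
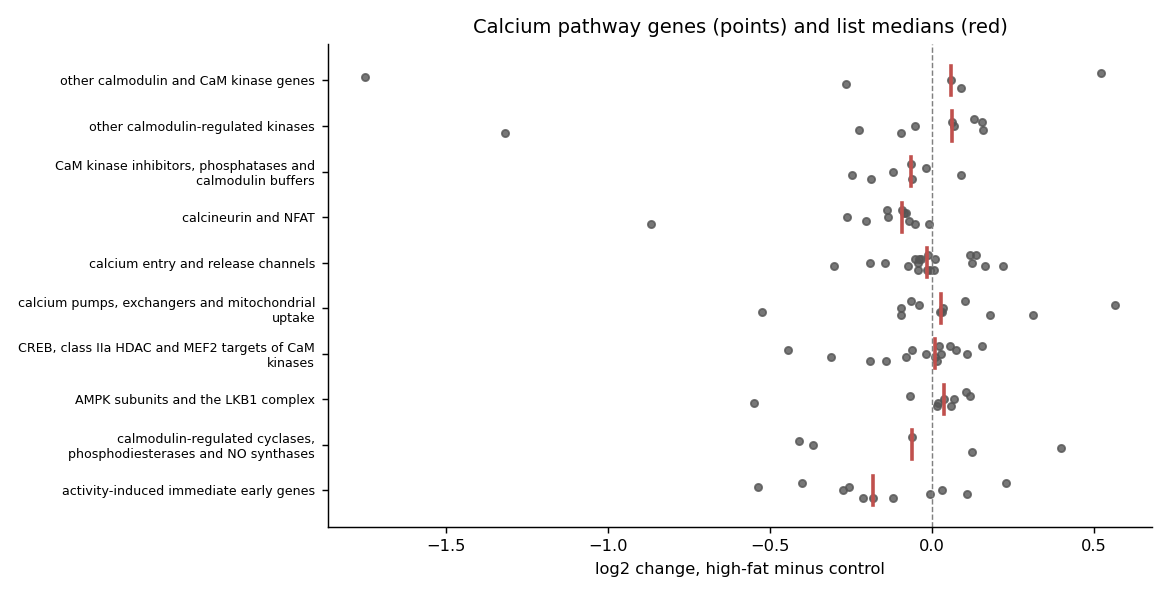
Log2 change, high-fat minus control (x axis), of each tested gene of the 10 pathway lists (points), with the median of each list in red. List medians lie between -0.18 and 0.06, and no gene of these lists passed in edgeR.

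In the list of other calmodulin and CaM kinase genes, 5 of 10 were tested and none passed. Camk1g, a CaM kinase I isoform, stood at 0.407 ± 0.333 CPM in high-fat mice and 1.38 ± 0.751 CPM in control mice, and Camk4, a nuclear CaM kinase known from T cells and neurons, at 2.87 ± 0.529 CPM in high-fat mice and 2.00 ± 0.687 CPM in control mice. With the macrophage marker level as a covariate Camk1g passed as lower in edgeR (adjusted p = 0.0283), and its adjusted p ran up to 0.819 over the alternatives. Calm4, Calm5 and Calml3 had 0 counts.

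Of 15 other calmodulin-regulated kinases 9 were tested and none passed. Dapk1, a death-associated kinase, was at 0.395 ± 0.223 CPM in high-fat mice and 0.992 ± 0.600 CPM in control mice, and Dapk3 at 65.4 ± 4.39 CPM in high-fat mice and 58.7 ± 10.3 CPM in control mice. Among inhibitors, phosphatases and calmodulin buffers, 7 of 10 were tested, with 6 of the changes negative and none past the threshold. For comparison, 6962 of all 14337 genes tested had negative changes. Camk2n1, an inhibitor protein of CaMKII, averaged 15.3 ± 1.56 CPM in high-fat mice and 17.5 ± 2.37 CPM in control mice (SD, n = 5 each), with a log2 change of -0.19 (SE 0.11). Marcksl1, which binds calmodulin at the membrane, was at 153 CPM in high-fat mice and 181 CPM in control mice, with a log2 change of -0.25 (SE 0.09).

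All 11 tested genes of the calcineurin and NFAT list, the phosphatase branch of calmodulin signalling, had negative changes and none passed. The median was -0.09 and the changes ran from -0.87 to -0.01. Among all 14337 genes tested, 6962 had negative changes. Nfatc3, a calcium-regulated transcription factor, was at 132, 132, 136, 138 and 124 CPM in high-fat mice 1 to 5, against 166, 161, 139, 157 and 141 CPM in control mice 1 to 5. Every high-fat value was below every control value. The adjusted p from edgeR was 0.259 at a log2 change of -0.20 (SE 0.07). Ppp3r1, the regulatory subunit of calcineurin, averaged 130 ± 12.5 CPM in high-fat mice and 138 ± 6.80 CPM in control mice (SD, n = 5 each), and Nfatc2, at a log2 change of -0.87 (SE 0.57), ran from -1.14 to 1.19 over the alternatives.

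Calcium channels and pumps went in both directions. Of 26 channel genes 19 were tested and none passed. Itpr2, an inositol trisphosphate receptor that releases calcium from the endoplasmic reticulum, was at 24.9 ± 2.58 CPM in high-fat mice and 30.6 ± 3.83 CPM in control mice. The cation channel gene Trpv2 was at 17.9 ± 1.12 CPM in high-fat mice and 15.3 ± 1.66 CPM in control mice. The mechanically gated channel gene Piezo1 was at 242 ± 20.1 CPM in high-fat mice and 276 ± 35.8 CPM in control mice. Of 18 pump, exchanger and mitochondrial uptake genes 12 were tested and none passed.

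Atp2b4, a plasma membrane pump that expels calcium with the help of calmodulin, was at 101, 69.3, 63.8, 60.4 and 78.4 CPM in high-fat mice 1 to 5, against 49.2, 54.9, 33.2, 56.6 and 58.0 CPM in control mice 1 to 5. The groups did not overlap, with high-fat mouse 1 far above the rest. Its log2 change was 0.57 (SE 0.17), with an adjusted p of 0.223 in edgeR and 0.0413 in DESeq2. Over the alternatives the adjusted p ran from 0.0413 to 0.831. Slc8b1, a mitochondrial sodium/calcium exchanger gene, was at 40.8 ± 6.15 CPM in high-fat mice and 32.8 ± 4.56 CPM in control mice. Atp2a2, the main pump into the endoplasmic reticulum, was at 599 ± 49.4 CPM in high-fat mice and 640 ± 44.3 CPM in control mice.

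Among transcription regulators that CaM kinases act on, 15 of 17 were tested and none passed in edgeR. Mef2a, a transcription factor freed when CaM kinases phosphorylate class IIa histone deacetylases, was at 80.8, 85.6, 81.3, 75.8 and 74.8 CPM in high-fat mice 1 to 5. In control mice 1 to 5 it was at 107, 97.3, 98.2, 92.4 and 99.2 CPM. Every high-fat value lay below every control value. The log2 change was -0.31 (SE 0.06), with an adjusted p of 0.111 in edgeR and 0.000884 in DESeq2, and up to 0.674 over the alternatives.

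Hdac4, one of those deacetylases, was at 27.7 ± 2.94 CPM in high-fat mice and 37.6 ± 9.29 CPM in control mice (SD, n = 5 each), where control mice 1 and 2 were the highest libraries. Srf, another transcription factor of the list, was at 142 ± 10.5 CPM in high-fat mice and 128 ± 11.3 CPM in control mice. Without control mice 3 and 4, which were highest on macrophage markers, Mef2a, Hdac4 and Prkaa2 passed as lower in edgeR (adjusted p = 0.0456, 0.0355 and 0.0272). Among the controls, mice 3 and 4 had the lowest values of Hdac4, at 29.2 and 30.4 CPM, and of Prkaa2, at 6.82 and 8.82 CPM. With the macrophage marker level as a covariate none of these 3 genes passed.

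The AMPK branch, which Camkk2 feeds, had 9 of 10 genes tested and none past the threshold. The catalytic subunit gene Prkaa1 was at 161 ± 10.8 CPM in high-fat mice and 159 ± 9.58 CPM in control mice, with a log2 change of 0.02 (SE 0.07). Prkaa2, the other catalytic subunit gene, was at 7.73 ± 1.14 CPM in high-fat mice and 11.3 ± 3.83 CPM in control mice. The regulatory subunit gene Prkag1 was at 45.8 ± 3.69 CPM in high-fat mice and 42.6 ± 0.826 CPM in control mice. Of 9 calmodulin-regulated cyclase, phosphodiesterase and nitric oxide synthase genes 5 were tested and none passed. Nos2, the inducible nitric oxide synthase, was the most abundant of them at 117 ± 19.0 CPM in high-fat mice and 123 ± 19.8 CPM in control mice, while Adcy8 and Nos1 were at 3.96 ± 0.910 and 1.25 ± 0.208 CPM in high-fat mice and at 2.99 ± 1.13 and 1.67 ± 0.300 CPM in control mice.

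Immediate early genes, which calcium signals induce through CREB and SRF among other routes, had 11 of 12 genes tested and none past the threshold. Of the 11, 8 had negative changes, against 6962 of all 14337 genes tested, and the median log2 change was -0.18. Fos was at 1204 ± 243 CPM in high-fat mice and 1366 ± 212 CPM in control mice, and Junb at 634 ± 153 CPM in high-fat mice and 768 ± 68.3 CPM in control mice. Bdnf, a neurotrophin gene induced by calcium in neurons, had the smallest p of the list, at 31.8 ± 1.77 CPM in high-fat mice and 27.1 ± 2.74 CPM in control mice, with an edgeR adjusted p of 0.285 and a log2 change of 0.23 (SE 0.08).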

How the data were processed

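RNA sequencing counts from 10 libraries were used, 1 per mouse, 5 per diet. The authors deposited whole-number raw counts per gene in a single table. Builds GRCm38 and mm10, and BWA 0.7.12, cutadapt 1.15, DESeq2 1.24.0 and FastQC 0.11.5, are listed without their use in the submitters' processing notes. How reads were counted, on which annotation and strand, is not given in the sources used here. Reads crossing exon junctions can be lost if BWA, which does not splice, placed them. Symbols, coordinates and lengths came from GENCODE M21 (GRCm38), to which 53274 of 53379 identifiers matched without version.

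The main test was the quasi-likelihood test of edgeR 4.0.16 (R 4.3.3), two-sided and robust, after filterByExpr and TMM scaling, with no covariate beside diet and Benjamini-Hochberg adjustment over 14337 genes. These held 99.9% of all counts. The same steps were tested on simulated counts with 200 changed genes. Standard errors are the absolute change over the square root of F, and intervals use the fit's degrees of freedom. Alternatives were DESeq2 1.42.0, limma-voom (limma 3.58.1, default settings), DESeq2 size factors, no filter, library size or macrophage level as a covariate, the mouse number as a block, each mouse left out, and control mice 3 and 4 left out. No pair of the 45 agreed within sampling noise (lowest chi-square per degree of freedom 8.26). The members and lists were chosen with earlier results of these data known. Genes named from the lists were the 2 with the smallest unadjusted p and the 1 with the highest mean RPKM. An item withheld from the text is not reported here. Likeness named the top 3 genes, and neighbours were the 3 tested genes on each side of Camk2a. Each library is labelled as a separate mouse. No columns were left without a sample.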

Additional observations from a re-analysis of the deposited data

Results flagged for a closer look

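The level of Camk1 in control mouse 3, 27.3 CPM, stood apart from the other control mice, the nearest of which was at 21.1 CPM. The gap was 0.717 of the group's range, against Dixon's 95% critical value of 0.710 for 5 samples. Of 18 groups examined, 9 genes in 2 diets, this was the 1 that stood apart, and chance alone passes that value in about 5% of groups. The same library had the lowest Camkk2 level of the controls and the second highest macrophage marker sum, and Camk1 shares exon sequence with Ogg1.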

How the results depend on the processing

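The number of genes past the threshold, 9 in all, was 316 with DESeq2 (106 higher and 210 lower), 5 with limma-voom, 53 with no filter on low counts, 0 with library size as a covariate in edgeR, 280 with the macrophage level as a covariate and 276 without control mice 3 and 4. It ran from 1 to 27 when each mouse was left out in turn. The number of members past the threshold, 1, was 0 with library size as a covariate and 0 to 1 when each mouse was left out, and the log2 change of Camk2a ran from 0.85 to 0.99 over those fits. The number of pathway genes past the threshold, 0, was 2 with DESeq2, 1 with the macrophage level and 3 without control mice 3 and 4. Small changes turned sign. With library size as a covariate, Camk2b was at -0.060, Camk1 at -0.030 and Calm3 at -0.019 on the log2 scale. With the macrophage level, Camk2g was at -0.068 and Calm3 at -0.050, and without control mice 3 and 4 Camk2g was at -0.025 and Calm3 at -0.011. With each mouse left out in turn, Camk2b ran from -0.065 to 0.11, Camk2g from -0.016 to 0.043 and Calm3 from -0.027 to 0.073. The cause of these shifts was not tested. With the longest transcript as length, 5 of 9 genes kept their place in the order of levels and the Camk2a share difference was 2.22 percentage points in place of 3.73. The likeness of Tstd1 to Camk2a ran from 0.77 to 0.96 with each mouse left out. Nothing in the labels says that mouse numbers pair the samples. Same-numbered mice had deviations correlated between -0.36 and 0.33, which cannot settle whether they pair. The fit with the replicate block called 16 genes, Camk2a among them. Camk2a, Camk2b and the rarer pathway genes rest on about 100 to 200 counts or fewer per library, which limits their precision.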

Other observations

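On chromosome 18 of GRCm38 the nearest tested neighbours of Camk2a are Arsi, a sulfatase gene, and Slc6a7, a proline transporter gene. Arsi was at 10.1 ± 3.43 CPM in high-fat mice and 6.09 ± 2.29 CPM in control mice (SD, n = 5 each), with an edgeR adjusted p of 0.342 and a log2 change of 0.73 (SE 0.29). Slc6a7 was at 0.743 ± 0.475 CPM in high-fat mice and 0.448 ± 0.222 CPM in control mice, with a log2 change of 0.72 (SE 0.47). Farther out, Tcof1, a nucleolar protein gene, had a log2 change of -0.10 (SE 0.10) and Pdgfrb, a growth factor receptor gene, one of 0.18 (SE 0.10). Cd74 and Csf1r, next in order on either side, are macrophage markers of the list used here. Cd74 was at 32.7 ± 11.7 CPM in high-fat mice and 142 ± 125 CPM in control mice, and Csf1r at 3.12 ± 1.41 CPM in high-fat mice and 20.1 ± 16.9 CPM in control mice. None of the 6 neighbours passed in edgeR.

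Dlg4, which encodes a scaffold of the neuronal postsynaptic density where CaMKII is abundant, was present at 71.7 ± 10.6 CPM in high-fat mice and 65.5 ± 3.79 CPM in control mice. It is named after its values were seen. The NMDA receptor genes Grin1 and Grin2b had 8 and 1 counts over all 10 libraries.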
